A study of Mus musculus with 9 samples.

Results

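Mast cells and basophils store proteases, histamine and a proteoglycan in their cytoplasmic granules, and 9 genes of that store were followed here in FDCPmix cells with reduced Gata2 or Pu.1. The genes were the carboxypeptidase Cpa3, the chymase family members Cma1, Mcpt1, Mcpt2, Mcpt4 and Mcpt8, the tryptase Tpsb2, the histamine-forming enzyme Hdc and the granule proteoglycan Srgn. Every probe whose RefSeq accession in the scanner files belongs to one of them was taken, which gave 10 probes of the 41174 on the array, for 9 of the 16535 genes that could be named. Cma1 had 2 probes and each other gene had 1. All 10 probes were well above background on all 9 arrays, so all of them were among the 36585 probes tested.

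FDCPmix is a karyotypically normal mouse haematopoietic line that renews itself as multipotent cells in IL-3. Cells in these self-renewal conditions received lentivirus with an shRNA against Gata2 (Gata2 KD), lentivirus with an shRNA against Pu.1 (Pu.1 KD) or empty vector (EV), with 3 samples in each group. All 3 groups were therefore transduced, and in all of them viable GFP+ cells were sorted 5 days later for total RNA. The control carried no shRNA, how many shRNA sequences each target had is not given in the labels, and all samples came from 1 cell line. The study describes triplicate samples that were transduced, and does not say whether these were independent cultures, so the p values measure the spread between these samples, which may be technical.

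Granule proteases are made as proenzymes, packed by ionic binding to the sulphated chains of serglycin, the product of Srgn, and released when IgE bound to its high-affinity receptor is crosslinked. Mast cells contain carboxypeptidase A3, chymases and tryptases in combinations that differ between connective tissue and mucosa, with Cma1, Mcpt4 and Tpsb2 typical of connective tissue and Mcpt1 and Mcpt2 typical of mucosa. Mcpt8 is characteristic of mouse basophils, and Hdc and Srgn are expressed by both cell types. GATA2 is required for mast cell and basophil development, and PU.1 drives myeloid differentiation.

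Between 80.4% and 89.6% of spots were well above background on an array, and no spot was saturated. The arrays lay on 3 slides, each with 1 array of every group, so each difference could also be taken within a slide. The knockdowns were visible in the targeted genes. Gata2 fell by 1.61 on the log2 scale in Gata2 KD (SE 0.23, adjusted p = 0.00414) and differed by -0.15 in Pu.1 KD (adjusted p = 0.964). Spi1, the gene that encodes PU.1, fell by 1.73 in Pu.1 KD (SE 0.16, adjusted p = 0.00178, with a fall of 1.00 under normexp background correction) and rose by 1.39 in Gata2 KD (adjusted p = 0.0012). Levels are log2 intensities minus the 75th percentile for the array, a level of 0 being that percentile, and they were compared only within a probe. Adjusted p values are those of limma after the Benjamini-Hochberg correction for all 36585 probes, and a gene was called when its brightest probe had an adjusted p under 0.05.

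Upstream sequence was available for 7 of the 9 genes as the 250 bases before the start of the RefSeq gene model in build GRCm38.p6. Mcpt2 and Tpsb2 were not listed. The sequences below belong to the genes that passed the test in any comparison and were listed, and they are shown because the factors knocked down bind short motifs of the kind searched. Capitals mark a GATA motif (GATA with A or T before it and A or G after it) or a PU.1 motif (GAGGAA), on either strand.
Cpa3, chr3:20242182-20242431, minus strand: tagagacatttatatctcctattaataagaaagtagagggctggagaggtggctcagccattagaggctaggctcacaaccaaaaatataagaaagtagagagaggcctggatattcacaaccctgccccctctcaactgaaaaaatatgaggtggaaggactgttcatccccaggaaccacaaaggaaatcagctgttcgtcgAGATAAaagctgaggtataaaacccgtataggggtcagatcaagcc
Cma1, chr14:55944676-55944925, minus strand: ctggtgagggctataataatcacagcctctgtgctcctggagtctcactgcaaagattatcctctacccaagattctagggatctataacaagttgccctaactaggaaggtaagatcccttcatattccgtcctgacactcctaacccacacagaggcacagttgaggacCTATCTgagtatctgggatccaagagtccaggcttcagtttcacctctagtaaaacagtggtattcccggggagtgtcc
Mcpt4, chr14:56062311-56062560, minus strand: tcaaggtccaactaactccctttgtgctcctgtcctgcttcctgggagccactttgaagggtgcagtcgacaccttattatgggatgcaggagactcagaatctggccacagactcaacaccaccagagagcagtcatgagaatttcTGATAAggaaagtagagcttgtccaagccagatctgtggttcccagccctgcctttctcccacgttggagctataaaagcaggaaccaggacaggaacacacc
Mcpt8, chr14:56085198-56085447, minus strand: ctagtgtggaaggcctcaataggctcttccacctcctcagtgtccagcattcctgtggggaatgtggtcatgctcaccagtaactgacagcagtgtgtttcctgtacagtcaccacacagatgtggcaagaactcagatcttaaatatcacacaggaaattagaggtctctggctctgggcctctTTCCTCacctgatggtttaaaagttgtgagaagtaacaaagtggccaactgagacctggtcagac
Hdc, chr2:126618679-126618928, minus strand: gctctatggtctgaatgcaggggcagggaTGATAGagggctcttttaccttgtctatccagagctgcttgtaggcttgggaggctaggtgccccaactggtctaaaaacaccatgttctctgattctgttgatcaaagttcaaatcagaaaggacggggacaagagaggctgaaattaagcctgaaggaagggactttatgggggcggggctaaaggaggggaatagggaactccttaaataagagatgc

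A GATA motif was present in 5 of the 7 genes, which is 5 of their 8 promoters, against 26.5% of all 32841 promoters of that length. It began 46 bases before the start in Cpa3, 79 in Cma1, 99 in Mcpt1, 103 in Mcpt4 and 221 in Hdc, and in Cma1 it lay on the opposite strand. The sequences of Mcpt1 and Mcpt4 were alike around the motif, so their matches are not independent. Mcpt8 and both starts of Srgn had none in this window. GAGGAA occurred in Mcpt8 only, 65 bases before the start on the opposite strand, which is 1 of the 8 promoters against 23.3% of all promoters. The E-box CANNTG holds the MITF E-boxes CACGTG and CATGTG among its forms. It was present in 5 of the 7 genes, or 6 of the 8 promoters, and in 66.2% of all promoters. The MITF E-boxes (17.6% of all promoters), the AP-1 motifs TGACTCA and TGAGTCA (4.46%) and the STAT motif TTCNNNGAA (7.02%) were not found in the 8 windows. These are matches of letters, and binding was not measured here.

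**Figure D1:**
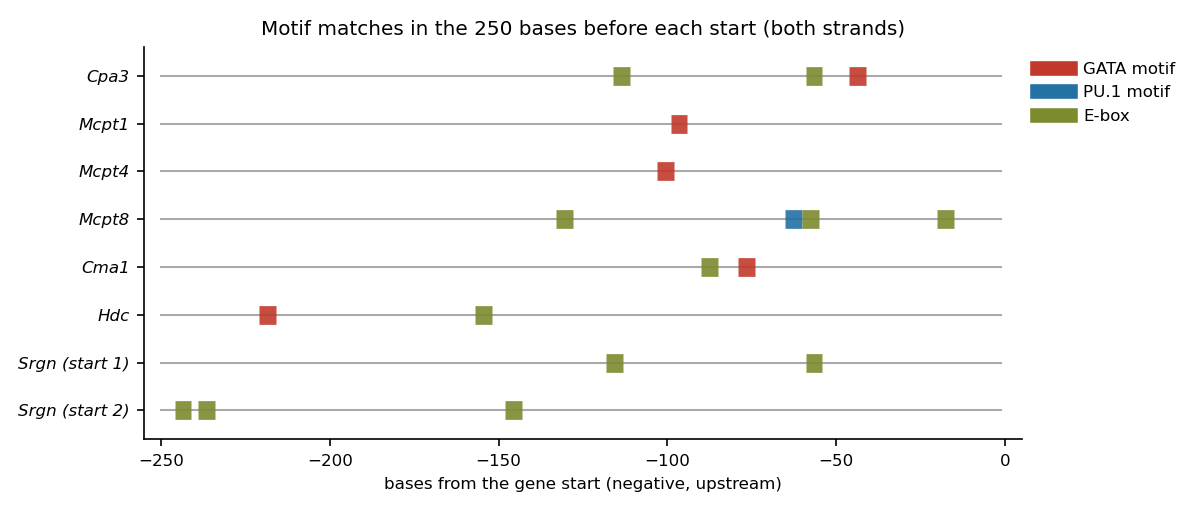
Motif matches in the 250 bases before each of 8 starts of 7 granule genes, with distance from the start in bases on the x axis and a grey line for each window. Red marks GATA motifs, blue the PU.1 motif and green E-boxes on either strand, with GATA motifs in 5 genes and the PU.1 motif in Mcpt8.

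In Gata2 KD 5 of the 9 granule genes fell (Cpa3, Mcpt8, Cma1, Hdc and Mcpt2), to between 17.8% and 53.2% of the EV level, while 2.24% of all tested probes were called lower. The same 5 genes had every Gata2 KD array below every EV array, which was so for 10.9% of all tested probes. The remaining 4 (Mcpt1, Mcpt4, Tpsb2 and Srgn) had changes between -0.57 and -0.20 and did not pass the test. The median change of the 9 was -0.91, against -0.09 over all tested probes.

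In Pu.1 KD the called genes went both ways. Mcpt2 and Cma1 rose, against 1.27% of probes called higher, and Hdc fell, against 1.42% called lower. The other 6 did not pass the test. Groups did not overlap for Mcpt2, Cma1 and Mcpt4, which were higher on every Pu.1 KD array (7.93% of all tested probes), nor for Hdc, Cpa3 and Mcpt8, which were lower on every one (9.32%). The median change was 0.12, against -0.04 over all tested probes. Both knockdowns were compared with the same EV arrays, so the 2 sets of changes are not independent, and the difference between the knockdowns was tested directly. Against Pu.1 KD, 5 of the 9 genes were lower in Gata2 KD (Cma1, Mcpt2, Cpa3, Mcpt4 and Mcpt8), where 4.77% of probes were called lower, and these 5 also did not overlap, as for 14% of probes. In these bulk samples fewer cells of a type and less RNA per cell cannot be told apart.

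**Figure D2:**
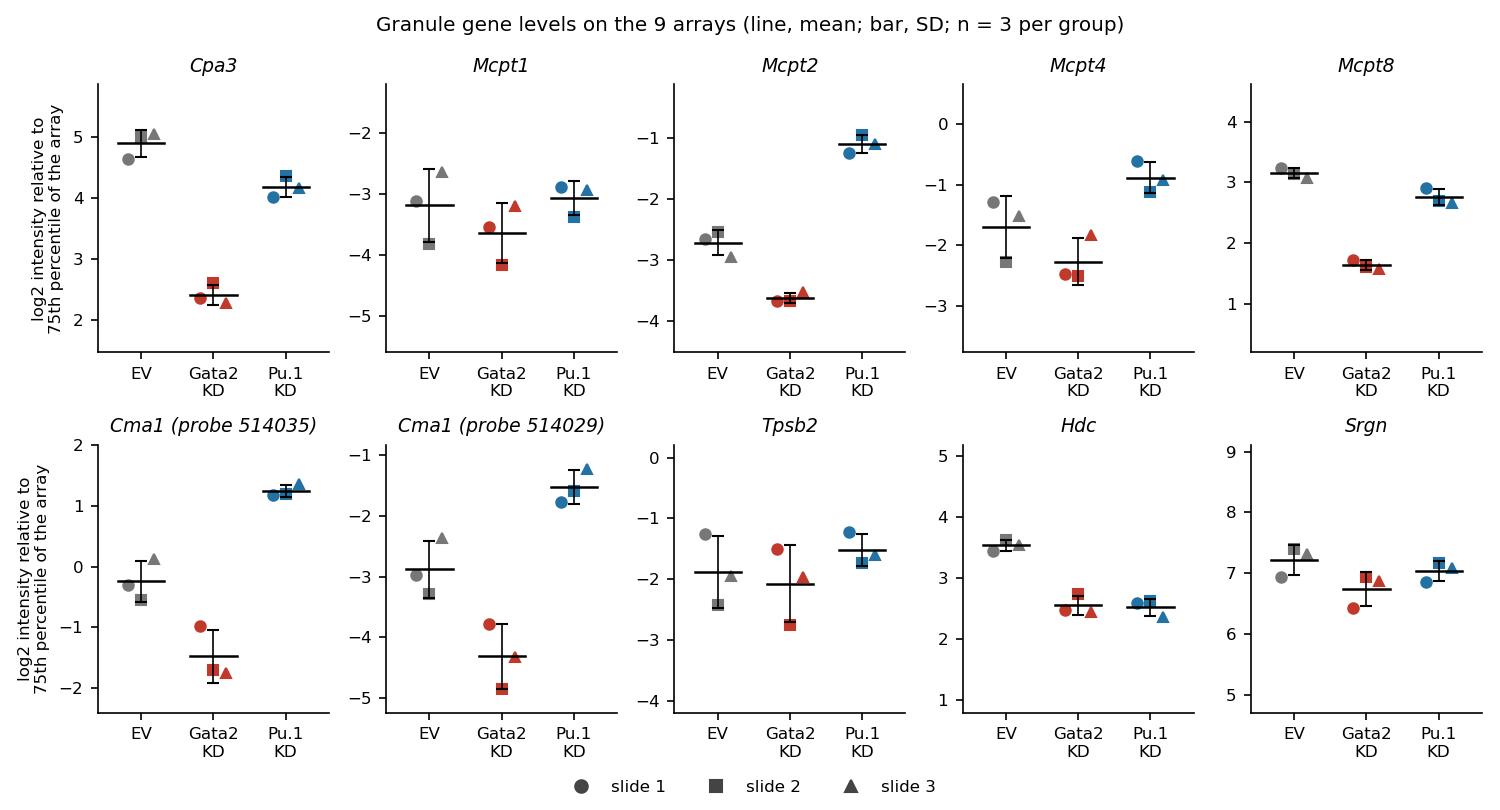
Levels of the 10 granule gene probes on the 9 arrays, as log2 intensity with the array's 75th percentile set to 0 (y axis), by group (x axis, 3 arrays each), with the mean as a line, the SD as a bar and the slide as the marker shape. Every panel spans the same log2 range. Gata2 KD arrays lie below EV for Cpa3, Mcpt2, Mcpt8, Cma1 and Hdc, and Pu.1 KD arrays lie above EV for Mcpt2, Mcpt4 and Cma1.

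Cpa3 encodes the carboxypeptidase that trims C-terminal hydrophobic residues, and it changed most of the set in Gata2 KD. Its levels were 4.64, 5.00 and 5.06 in EV replicates 1 to 3, 2.60, 2.28 and 2.36 in Gata2 KD, and 4.17, 4.36 and 4.02 in Pu.1 KD. No 2 groups overlapped, with EV highest and Gata2 KD lowest. The Gata2 KD mean of 2.41 ± 0.17 (SD, n = 3) was 2.49 below the EV mean of 4.90 ± 0.23, with SE 0.17 and adjusted p = 8.66e-05, and within slides the change ran from -2.78 to -2.28. That left 17.8% of the EV level. In Pu.1 KD the mean of 4.18 ± 0.17 differed from EV by -0.72 (SE 0.17, adjusted p = 0.0775), with the same direction on 3 of 3 slides. This difference passed the test under 5 of 21 alternatives, among them the slide as a block (adjusted p = 0.0271) and normexp background correction (adjusted p = 0.0114). The knockdowns differed from each other by -1.77 (adjusted p = 0.000306), Gata2 KD being lower.

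Mcpt8, the basophil serine protease, had levels of 3.24, 3.14 and 3.08 in EV, 1.60, 1.58 and 1.73 in Gata2 KD, and 2.66, 2.70 and 2.91 in Pu.1 KD. The groups were again ordered EV, Pu.1 KD, Gata2 KD without overlap, and the replicates of a group lay close together. It fell by 1.51 in Gata2 KD (SE 0.13, adjusted p = 0.000295), to 35.0% of EV, and the 3 within-slide changes ran from -1.54 to -1.49. The Pu.1 KD difference was -0.40 (SE 0.13, adjusted p = 0.206) and did not pass the test. Compared directly, Gata2 KD minus Pu.1 KD was -1.12 (adjusted p = 0.000875).

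Cma1 encodes a chymase of mast cell granules. Its brighter probe (A_51_P514035) had levels of -0.30, -0.55 and 0.12 in EV, -1.69, -1.75 and -0.97 in Gata2 KD, and 1.36, 1.19 and 1.18 in Pu.1 KD. The knockdowns lay on opposite sides of EV, and no groups overlapped. It fell by 1.23 in Gata2 KD (SE 0.25, adjusted p = 0.0260), with within-slide changes from -1.88 to -0.67. It rose by 1.49 in Pu.1 KD (SE 0.25, adjusted p = 0.0201), a 2.80-fold increase, with within-slide changes from 1.24 to 1.74. The direct difference between the knockdowns was -2.72 (adjusted p = 0.00023). The second probe (A_51_P514029) read -2.98, -3.29 and -2.37 in EV, -4.84, -4.31 and -3.78 in Gata2 KD, and -1.23, -1.59 and -1.77 in Pu.1 KD, with the same order of groups and no overlap. It gave changes of -1.43 in Gata2 KD (adjusted p = 0.0421), 1.35 in Pu.1 KD (adjusted p = 0.0780) and -2.78 between them (adjusted p = 0.000859), so it did not pass the test in Pu.1 KD. Neither call against EV was firm: leaving out an array or fitting only the groups compared took the Gata2 KD adjusted p as high as 0.121 and the Pu.1 KD adjusted p as high as 0.0983.

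Mcpt2, a mucosal mast cell protease, behaved most like Cma1 within the set. Its levels were -2.65, -2.55 and -2.95 in EV, -3.67, -3.53 and -3.68 in Gata2 KD, and -1.10, -0.95 and -1.24 in Pu.1 KD. All 3 Pu.1 KD arrays were above, and all 3 Gata2 KD arrays below, the range of EV. The rise in Pu.1 KD was 1.62 (SE 0.15, adjusted p = 0.00224), a 3.07-fold increase, and it was between 1.41 and 1.85 within slides. The fall in Gata2 KD was smaller, by 0.91 (SE 0.15, adjusted p = 0.0104), to 53.2% of EV, and it was less firm. It missed the test under 4 of 21 alternatives, namely quantile normalization (adjusted p = 0.207), scaling to the median (adjusted p = 0.124), the deposited log2 values (a change of -0.61, adjusted p = 0.0776) and without Gata2 KD replicate 3 (adjusted p = 0.0522). With normexp background correction the change was -0.49 (adjusted p = 0.0329). The knockdowns differed by -2.53 (adjusted p = 2.19e-05), or by -1.59 with normexp.

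Mcpt4, the connective tissue chymase thought to be the functional counterpart of human chymase, had levels of -1.29, -2.27 and -1.52 in EV, -2.50, -1.82 and -2.47 in Gata2 KD, and -0.93, -1.12 and -0.61 in Pu.1 KD. Pu.1 KD lay above EV on every array, whereas Gata2 KD and EV overlapped. Neither change against EV passed the test, with 0.81 in Pu.1 KD (SE 0.30, adjusted p = 0.281) and -0.57 in Gata2 KD (SE 0.30, adjusted p = 0.479). The direct comparison gave -1.38 (SE 0.30, adjusted p = 0.0217), Gata2 KD being lower, and this call was lost under 5 of 21 alternatives.

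Mcpt1, a mucosal chymase, and Tpsb2, the tryptase also known as Mcpt6, showed the widest spread between replicates. Mcpt1 had levels of -3.11, -3.82 and -2.63 in EV, -4.17, -3.20 and -3.54 in Gata2 KD, and -2.93, -3.38 and -2.88 in Pu.1 KD. Its changes were -0.45 in Gata2 KD and 0.12 in Pu.1 KD with SE 0.35, and neither passed the test (adjusted p = 0.734 and 0.9997). Tpsb2 had levels of -1.25, -2.42 and -1.95 in EV, -2.75, -1.97 and -1.50 in Gata2 KD, and -1.60, -1.74 and -1.23 in Pu.1 KD. The groups overlapped for both genes. The Tpsb2 changes were -0.20 and 0.35 with SE 0.38 (adjusted p = 0.959 and 0.912), and the Gata2 KD value turned positive when EV replicate 1 or Gata2 KD replicate 1 was left out. That fit has no term for the slide. Within slides the Tpsb2 difference between Gata2 KD and EV was negative on 3 of 3, from -0.33 to -0.02. The Mcpt1 difference in Gata2 KD was also negative on 3 of 3 slides, from -0.57 to -0.35. The standard errors of Mcpt1 and Tpsb2 were the largest of the set in the fit without the slide, which could not detect changes of this size. Neither gene was called against EV under any of the 21 alternatives, the slide as a block among them.

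Hdc encodes histidine decarboxylase, which forms histamine from histidine, and it was lower than EV in each knockdown. Its levels were 3.45, 3.62 and 3.54 in EV, 2.73, 2.45 and 2.48 in Gata2 KD, and 2.36, 2.62 and 2.58 in Pu.1 KD. Both knockdowns lay below EV on every array and overlapped each other. The level in Gata2 KD was 50.6% of EV, a change of -0.98 (SE 0.14, adjusted p = 0.00493), and in Pu.1 KD it was 49.5% of EV, a change of -1.02 (SE 0.14, adjusted p = 0.00999). Within slides the changes ran from -1.10 to -0.89 and from -1.18 to -0.86. The difference between the knockdowns was 0.03 (SE 0.14, adjusted p = 0.9999), which is less than the spread between replicates. Scaling to the median ended both calls, with adjusted p = 0.0767 in Gata2 KD and 0.118 in Pu.1 KD.

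Srgn had levels of 6.94, 7.40 and 7.31 in EV, 6.94, 6.87 and 6.42 in Gata2 KD, and 7.08, 7.17 and 6.86 in Pu.1 KD. The groups overlapped. The Gata2 KD change of -0.47 (SE 0.20, adjusted p = 0.311) did not pass the test, although it was negative on 3 of 3 slides, from -0.51 to -0.44 within slides. It passed under 3 of 21 alternatives: the slide as a block (adjusted p = 0.0331), normexp (adjusted p = 0.0115) and the deposited log2 values (adjusted p = 0.00441). In Pu.1 KD the change was -0.18 (SE 0.20, adjusted p = 0.917).

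**Figure D3:**
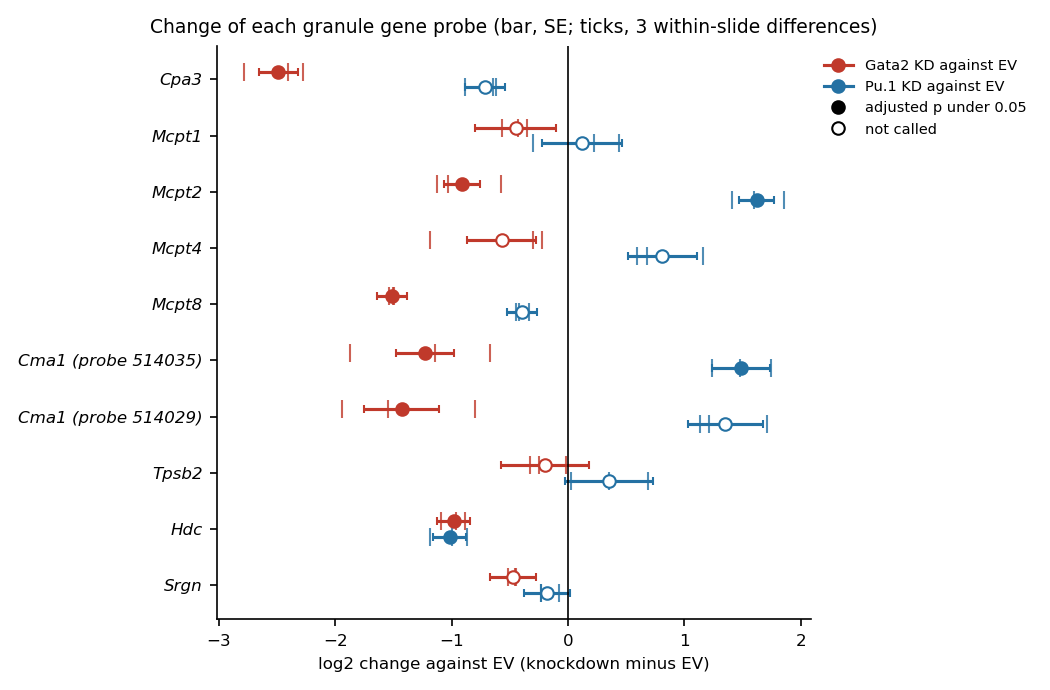
Log2 change of each granule gene probe against EV (x axis) for Gata2 KD (red) and Pu.1 KD (blue), with the SE of the fit as a bar, the 3 within-slide differences as ticks and filled symbols for an adjusted p under 0.05. Gata2 KD changes are all below 0, from -2.49 for Cpa3 to -0.20 for Tpsb2, whereas Pu.1 KD changes run from -1.02 for Hdc to 1.62 for Mcpt2.

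The members were also compared with each other as patterns, after each probe was set to the mean of its EV arrays, by the root mean square difference over the 9 arrays. Among the called members the closest pair was Mcpt2 and Cma1, at 0.408, followed by Mcpt8 and Hdc at 0.488 and Cpa3 and Mcpt8 at 0.630. Cpa3 and Mcpt2 were the farthest apart of all pairs, at 1.64. Across 14244 genes well above background on all arrays, the nearest to Cpa3 were P2rx7, an ATP-gated channel (0.154), Alox5, the 5-lipoxygenase of leukotriene synthesis (0.240) and Cd55, an inhibitor of complement (0.265). P2rx7 changed by -2.38 in Gata2 KD and -0.61 in Pu.1 KD, close to the -2.49 and -0.72 of Cpa3. Nearest to Mcpt8 were Slc7a8, an amino acid transporter (0.104), Fam20a (0.134) and Nxnl2 (0.149). Nearest to Hdc were Niban1 (0.0753), Padi2, a peptidylarginine deiminase (0.134), and Fam3c (0.135). Niban1 fell by 0.91 in Gata2 KD and by 1.00 in Pu.1 KD. The genes that followed the opposite changes of the chymases were Ak1, an adenylate kinase (0.210), Mfsd4a (0.225) and Tph1, which catalyses the first step of serotonin synthesis (0.242), for Mcpt2, and Abat (0.282), Inka2 (0.302) and Prl2c5 (0.304) for Cma1. Tph1 changed by -0.84 in Gata2 KD (adjusted p = 0.0213) and by 1.67 in Pu.1 KD (adjusted p = 0.00245). These distances are descriptions over 9 arrays, with no test.

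Cma1, Mcpt1, Mcpt2, Mcpt4 and Mcpt8 are neighbours on chromosome 14, in a cluster that continues in the GRCm38.p6 gene order through Ctsg and the granzymes Gzme, Gzmd, Gzmg, Gzmn, Gzmf, Gzmc and Gzmb. The changes differed from gene to gene along it. Ctsg, the cathepsin G of neutrophil and mast cell granules, lies next to Mcpt8 and rose by 0.96 in Gata2 KD (SE 0.15, adjusted p = 0.00828, or 0.0609 with scaling to the median) while Mcpt8 fell. Its difference between the knockdowns was 1.47 (adjusted p = 0.000474), higher in Gata2 KD, where 4.86% of probes were called higher. Gzmb, the cytotoxic granzyme B, at the far end, fell by 1.92 in Gata2 KD (SE 0.14, adjusted p = 0.000131), with a Pu.1 KD change of 0.39 (adjusted p = 0.286). Gzmc rose by 1.98 in Pu.1 KD (SE 0.16, adjusted p = 0.00137), with a Gata2 KD change of -0.54 (adjusted p = 0.120). Gzmd, taken for its position, did not pass the test against EV, with changes of -1.58 and 0.87, and its direct difference, Gata2 KD minus Pu.1 KD, was -2.46 (adjusted p = 0.0300). The changes of Cma2 and Gzme ran from -0.34 to 0.48 and did not pass, nor did those of Gzmf, which was well above background on 4 of the 9 arrays. Mcpt9, Gzmg and Gzmn were not tested. Chymase and granzyme genes are similar in sequence, and whether a probe also binds the RNA of a neighbour was not tested.

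**Figure D4:**
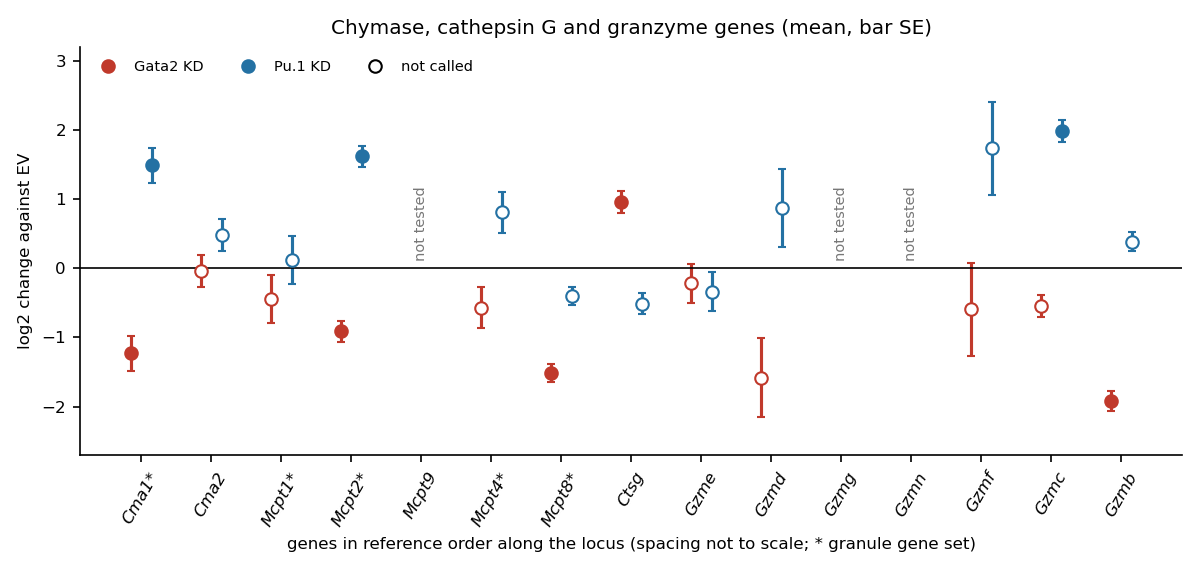
Log2 change against EV (y axis, mean with SE) of chymase, cathepsin G and granzyme genes in their reference order (x axis, not to scale), in red for Gata2 KD and blue for Pu.1 KD, with filled symbols for an adjusted p under 0.05 and asterisks on the granule gene set. Cma1, Mcpt2, Mcpt8 and Gzmb fell and Ctsg rose in Gata2 KD, and Cma1, Mcpt2 and Gzmc rose in Pu.1 KD.

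Related lists placed the set among other genes of these cells. Over all tested probes, 2.24% were called lower and 2.96% higher in Gata2 KD, and 1.42% lower and 1.27% higher in Pu.1 KD. Of 10 other mast cell and basophil proteases 6 were tested. Besides Gzmb and Ctsg in Gata2 KD and Gzmc, which rose by 1.98 in Pu.1 KD, the basophil protease Prss34 was called. Prss34 fell by 1.74 in Gata2 KD (adjusted p = 0.000493) and by 0.81 in Pu.1 KD (adjusted p = 0.0437). The median change of this list was -0.65 in Gata2 KD and 0.31 in Pu.1 KD. Genes of granule contents, loading and secretion moved less as a list, with 4 of 24 lower and 1 higher in Gata2 KD and a median of -0.10. Slc18a2, the vesicular transporter that loads histamine and other monoamines, fell by 1.71 in Gata2 KD (SE 0.14, adjusted p = 0.000183) and differed by 0.36 in Pu.1 KD (adjusted p = 0.302). Rab27b, a small GTPase of granule secretion, fell by 0.96 (adjusted p = 0.0409), and Lyst, the lysosomal trafficking regulator that limits granule size, rose by 2.0 (adjusted p = 0.00238), both in Gata2 KD. In Pu.1 KD 1 of the 24 genes of that list was called, against 1.42% of all tested probes called lower. It was the cathepsin Ctsl, with a fall of 1.43 (adjusted p = 0.00844). The changes of Ctsl and Lyst depended on the background correction. With normexp Ctsl changed by -0.44 (adjusted p = 0.177) and Lyst by 0.82 (adjusted p = 0.00714), and Ctsl also missed the test when only the groups compared were fitted (adjusted p = 0.0599).

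Leukotriene genes did not move together. In Gata2 KD Alox5 fell by 2.18 (SE 0.13, adjusted p = 4.49e-05), whereas Ltc4s, the leukotriene C4 synthase, rose by 1.34 (SE 0.16, adjusted p = 0.00171) and Alox5ap, the protein that presents arachidonate to Alox5, rose by 0.68 (adjusted p = 0.0285). These were the 3 of 8 genes called in the list of lipid mediators and amine breakdown, whose median was -0.06. Of all tested probes 2.24% were called lower and 2.96% higher. In Pu.1 KD Alox5 fell by 0.70 (adjusted p = 0.0305) and Alox5ap by 0.67 (adjusted p = 0.0486), with a list median of -0.69. That median includes the dim genes Hpgds, Hnmt and Aoc1, with changes of -0.66, -0.73 and -1.17 (SE 0.67, 0.80 and 0.52), none of them called. These 3 were well above background on only 1 or 2 arrays of each group. The other genes called lower numbered 2 of 8, against 1.42% of all tested probes.

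Surface and signalling genes of mast cells and basophils were lower in 8 of 25 and higher in 2 of 25 in Gata2 KD, with a median of -0.39. The shares over all tested probes were 2.24% lower and 2.96% higher. Fcer1a, the IgE-binding chain of the high-affinity receptor, fell by 2.96 (SE 0.13, adjusted p = 1.29e-05), and Il1rl1, the IL-33 receptor, fell by 3.21 (SE 0.15, adjusted p = 1.41e-05). Under the 21 alternatives the Il1rl1 change lay between -3.29 and -2.39. The cytokine gene Il6 fell by 2.10 (adjusted p = 0.000446). Ms4a2, the beta chain of the IgE receptor, differed by -0.94 without passing the test (adjusted p = 0.0932), and passed it with the slide as a block (adjusted p = 0.0193). Kit, the receptor for stem cell factor on mast cells and on progenitors, rose by 0.75 (adjusted p = 0.0241). In Pu.1 KD 5 genes of this list were lower and 1 was higher, against 1.42% and 1.27% of all tested probes, with a median of -0.07. Kit rose by 1.41 (adjusted p = 0.00332), Siglecf, a lectin also found on eosinophils, fell by 2.41 (adjusted p = 0.000916, with a fall of 1.43 under normexp), Fcer1a fell by 0.70 (adjusted p = 0.0329) and Il6 by 1.09 (adjusted p = 0.0266), whereas Il1rl1 differed by 0.21 (adjusted p = 0.735). The smaller Pu.1 KD falls were not firm, since those of Prss34, Alox5 and Alox5ap were each lost under 13 of 21 alternatives, that of Fcer1a under 12 and that of Il6 under 10. In Gata2 KD the calls of Rab27b and Alox5ap were lost under 10 and that of Kit under 9.

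Of 16 regulators of these lineages, which include both targeted genes, 5 were lower and 4 higher in Gata2 KD, with Gata2 itself among the lower. Of all tested probes 2.24% were lower and 2.96% higher there. Gata1, which acts with and after Gata2, fell by 1.08 (adjusted p = 0.0128), Irf8, a factor of monocyte and basophil progenitors, rose by 4.38 (adjusted p = 3.47e-06) and Id2, an inhibitor of E proteins, rose by 1.76 (adjusted p = 0.00039). Under the 21 alternatives the Irf8 rise lay between 3.37 and 4.43. The Gata1 call was lost under 3 of 21 alternatives, scaling to the median (adjusted p = 0.0771) and without Gata2 KD replicate 1 (0.0539) or 3 (0.0528). In Pu.1 KD 4 were lower, the targeted Spi1 among them, and 1 was higher, against 1.42% and 1.27% of all tested probes. The higher one was Id2, with a rise of 1.13 (adjusted p = 0.0106) that was lost under 4 of 21, including without Pu.1 KD replicate 3 (adjusted p = 0.0552). Gata1 differed by 0.42 there (adjusted p = 0.435).

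Markers of other lineages moved with the same groups. In Gata2 KD, where 2.96% of all tested probes were called higher, 13 of 14 neutrophil markers rose with a median of 3.0, and their summed intensity relative to the 75th percentile was 161 to 178 in EV and 984 to 1125 in Gata2 KD. Mpo, the myeloperoxidase of neutrophil granules, rose by 3.08 (adjusted p = 1.71e-05). Mrc1, a macrophage receptor, was well above background on the Gata2 KD arrays alone and had been tested through them. Of the other 10 tested monocyte and macrophage markers 8 rose, among them Csf1r by 4.52 (adjusted p = 1.26e-05, or 2.78 as the mean of its probes), and with Mrc1 included the sum was 35.2 to 38.4 in EV and 258 to 315 in Gata2 KD. Most of that sum was Lyz2 alone, at 83.9% to 87.0% in EV, 70.8% to 74.5% in Gata2 KD and 75.3% to 80.6% in Pu.1 KD. Of 7 eosinophil markers 3 rose, with sums of 3.37 to 4.82 in EV and 11.7 to 15.2 in Gata2 KD. Of 12 erythroid markers 4 fell, against 2.24% of all tested probes called lower, with sums of 225 to 314 and 131 to 198. Between 86.9% and 94.3% of the erythroid sum on an array was the globin Hbb-bt, which was not among the called genes (change -0.71, adjusted p = 0.124). Of 9 megakaryocyte markers 3 rose and 1 fell, with sums of 66.1 to 84.0 and 70.4 to 102. In Pu.1 KD, where 1.42% of all tested probes were called lower and 1.27% higher, 11 of the 14 neutrophil markers fell. Mpo fell by 2.81 (adjusted p = 0.000213), and the neutrophil sum was 25.6 to 32.7. Of the other lists there, 3 of those 10 monocyte and macrophage markers and 4 of 7 eosinophil markers fell, with sums of 15.3 to 16.7 and 1.37 to 1.57. Erythroid markers rose in 4 of 12, but their sums of 256 to 301 lay within the EV range of 225 to 314. Those 4 calls were not firm, being lost under 8 of 21 alternatives for Klf1, 10 for Aqp1, 8 for Car2 and 7 for Epor. In Gata2 KD the fall of Klf1 was kept under all 21, and those of Aqp1, Car2 and Epor were lost under 4, 6 and 11. Megakaryocyte markers rose in 3 of 9 in Pu.1 KD with 1 lower, with sums of 153 to 178. Apart from Mrc1, every tested marker was well above background on some array of each group. The part of these shifts in the granule gene changes was not tested.

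**Figure D5:**
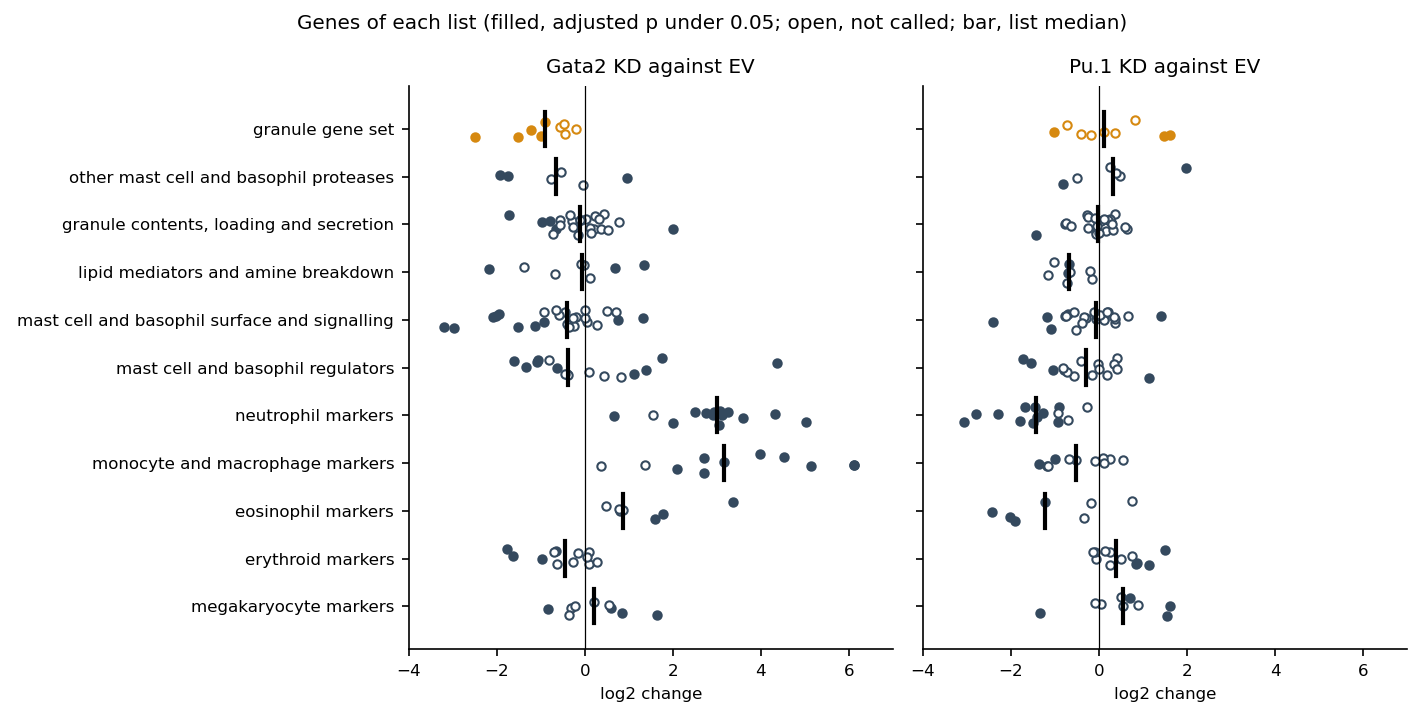
Log2 change against EV (x axis) of each tested gene in the granule gene set (orange) and 10 related lists (y axis), in Gata2 KD on the left and Pu.1 KD on the right, with filled symbols for an adjusted p under 0.05 and a bar for the list median. The granule set has a median of -0.91 in Gata2 KD and 0.12 in Pu.1 KD, and neutrophil markers have medians of 3.0 and -1.44.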

How the data were processed

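Total RNA (150 ng per sample) was labeled with Cy3 and hybridized to 9 one-color Agilent whole mouse genome arrays designed on build mm8. The authors deposited 1 scanner table per array, written by Agilent Feature Extraction 10.1.1.1, with a processed intensity that is background-subtracted within the array and carries no normalization across arrays. A table of log2 values, also deposited by the authors, was used only as an alternative because its normalization and exact scale are not given in the sources used here. Per the study's methods, arrays were tested with LIMMA and SAM. SAM was not run here.

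Control spots were left out, spots flagged as outliers were set to missing, and spots of a probe were averaged. The log2 processed intensity minus the 75th percentile of the array was fitted in R 4.3.3 using limma 3.58.1 (a mean for each of the 3 groups, lmFit and eBayes, all 9 arrays sharing 1 estimate of the spread). Probes well above background on 3 or more arrays, without regard to group, and with 2 or more values in every group were tested. A probe with several spots passed when 50% of them did. The test was checked on simulated data with independent noise between arrays, so the check does not cover the correlation seen between arrays of 1 slide. Precision is limited by the number of arrays.

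Groups and replicate numbers came from the sample titles. Probes were named by matching the accession in the files, without its version, to RefSeq (23374 probes named). A gene was called by its probe with the highest mean level. Slides were read from the scanner files. Normexp, as an alternative, used the median signal with an offset of 50, since no mean signal column was present. The genes named from each list were the 4 with the largest change among those called, plus defining members, and neighbours in the chymase locus were added by position. The 9 genes and the lists were chosen with earlier results of these data known. Promoters came from RefSeq, and their first 50 transcribed bases were left out.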

Additional observations from a re-analysis of the deposited data

How the results depend on the processing

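The count of granule genes called was recomputed under 21 alternatives per comparison, 9 of which left out an array. In Gata2 KD against EV the count was 5 and lay between 4 and 5 with an array left out. In Pu.1 KD against EV it was 3 and lay between 1 and 3, the 1 being without Pu.1 KD replicate 1, and in Gata2 KD against Pu.1 KD it was 5 and lay between 4 and 5. Scaling to the median left 3 in Gata2 KD, and fitting only the groups compared left 1 in Pu.1 KD. The highest counts under the 21 alternatives were 6 in Gata2 KD and 4 in Pu.1 KD, both reached with the slide as a block and with normexp. Calls of Cpa3 and Mcpt8 in Gata2 KD, of Mcpt2 in Pu.1 KD and of Cpa3, Mcpt2, Mcpt8 and Cma1 between the knockdowns were kept under all 21. The Cma1 call was lost under 7 in Gata2 KD and 6 in Pu.1 KD, and the Hdc call in Pu.1 KD under 4. Signs turned without a call in 4 cases, each given as its range with an array left out. Tpsb2 in Gata2 KD ran from -0.49 to 0.14 and was positive when EV replicate 1 (0.11) or Gata2 KD replicate 1 was dropped, although it was negative within 3 of 3 slides. Mcpt1 in Pu.1 KD ran from -0.20 to 0.40 and was negative without EV replicate 2. Between the knockdowns Hdc ran from -0.0552 without Gata2 KD replicate 1 to 0.0853, with -0.0469 without Pu.1 KD replicate 1, and Ms4a2 from -0.40 to 0.0414 without Pu.1 KD replicate 1. The causes were not tested.

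Over all probes the counts called in Gata2 KD and Pu.1 KD against EV were 1902 and 986, and 3524 between the knockdowns. Scaling to the median gave 1203, 377 and 2259 and moved the share called higher in Gata2 KD from 57.0% to 69.7%. The slide as a block gave 2886 and 1875, and the deposited log2 values gave 2620 and 1785. With a replicate block 5, 2 and 4 granule genes were called, and 1172, 234 and 2368 probes. Deviations of same-numbered arrays correlated at -0.55 to 0.65, with 4 of 9 pairs over 0.1, against -0.04 to 0.72 and 8 of 9 for arrays of 1 slide. Some same-numbered arrays also shared a slide, such as replicate 2 of EV and of Pu.1 KD (0.65). Whether the replicate numbers pair the arrays can therefore not be settled here. Of the granule genes, Mcpt1 and Tpsb2 had the largest standard errors in the fit without the slide, which limits what it could resolve for them.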
